A study of Mus musculus with 75 samples.

Results

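In male mouse germ cells, 24 genes out of 26218 in the table stood at 50 RPM (a gene's reads scaled to a fixed total of reads assigned to genes) or more at E15.5, counted in days of embryonic development, and were low from E9.5 to male E12.5 and in every female group. They were chosen on group means of log2(RPM + 1): the male E15.5 mean had to exceed the highest of E9.5, E10.5, E11.5, male E12.5 and all female groups by at least 4, the male E15.5 mean had to reach 50 RPM, and predicted gene names were dropped, which removed 1 gene. Values of those groups therefore chose the members and are given below as description, without a test. Male E13.5, male E14.5 and all cultured cells did not enter the choice. Just inside the difference of 4 were Ndrg4 (4.03), Cln3 (4.05) and Gulo (4.08), and just outside were Prmt2 (3.98), Fbxo41 (3.94) and Padi3 (3.82). Nanos2, an RNA-binding protein of the male germ line, passed the difference (4.13) and missed the level, at 42.3 RPM.

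After sex determination, germ cells in the fetal testis stop dividing and become prospermatogonia, while those in the ovary enter meiosis. Prospermatogonia then remethylate their genome. In that process short PIWI-bound RNAs (piRNAs) guide a nuclear PIWI protein to young transposons, and the DNA methyltransferases with their cofactor DNMT3L methylate them. Prospermatogonia are also the stage at which transcription factors of the later spermatogonia begin to appear.

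The series measured messenger RNA in 75 libraries with SC3-seq, which reads the 3' ends of transcripts after amplification from small inputs. Embryonic germ cells were of ICR:C57BL/6 mice, 2 libraries for each of 11 groups, sorted for Dppa3-EGFPTg/0 from E9.5 to E13.5 and for Ddx4-RFPTg/0 at E14.5 and E15.5. Up to E11.5 no sex is given, and from E12.5 male and female were sorted apart. PGC-like cells (PGCLCs) were made from embryonic stem cells carrying Prdm1-mVenusTg/0 and Dppa3-ECFPTg/0 and cultured for up to 9 days. From the 129S1:C57BL/6 line came 22 libraries in 11 pairs, taken on day 0, on day 3 under CT, and on days 5, 7 and 9 under each of CT, RA and RB. What CT, RA and RB stand for is not spelled out, though the series title names BMP and RA as the factors studied. The DBA/2:C57BL/6 line gave wild type (2 libraries per group) and Stra8-/- cells (4 libraries per group) at CT day 3 and RB days 5, 7 and 9. Stra8 is the factor that lets germ cells enter meiosis, and the knockout libraries came from 3 lines, SK1 with 2 libraries and SK2 and SK3 with 1 each. A further 7 single libraries were in no test: 1 of the 129S1:C57BL/6 line named 0R3B, and 6 of a C57BL/6 line that also carries Gtrosa26tm1Sor/0. Whether replicate libraries are of separate embryos or cultures is not stated, so the p-values cover only library-to-library spread, which may be technical.

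Depth, estimated from the value of a single read, ran from 1.08 to 15.6 M reads, and 3 reads were worth 0.192 to 2.78 RPM. The sorted male cells carried germ cell transcripts throughout: the 10 germ cell markers looked at (Ddx4, Dazl, Dppa3 and others) summed to 8741 to 8762 RPM at E13.5, 7595 to 7668 at E14.5 and 6231 to 6925 at E15.5, with none at 0. In bulk RNA, fewer cells expressing a gene and less of its RNA per cell cannot be told apart. The 24 members lay on 14 chromosomes, with 2 of them, Rhox10 and Nxf2, on X.

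Promoter windows of 300 bases (250 before to 50 after the start) were found for 16 of the 24 members in RefSeq's table on GRCm38.p6. Shown here are the first listed windows of Dnmt3l, Sohlh1, Ptgr1 and Rhox10, the members whose course in culture differed most between Stra8 knockout and wild type (below), and of Tdrd9 and Nxf2, which with Sohlh1 are the members whose first listed window holds the E-box CACGTG. They lie at chr10:78042037-78042336 (plus strand, Dnmt3l), chr2:25847199-25847498 (minus, Sohlh1), chr4:58987029-58987328 (minus, Ptgr1), chrX:38066225-38066524 (plus, Rhox10), chr12:111971309-111971608 (plus, Tdrd9) and chrX:134964705-134965004 (minus, Nxf2). Each is written 5′ to 3′ on the gene's strand, and capitals mark CpG, the pair of bases that carries DNA methylation.
Dnmt3l: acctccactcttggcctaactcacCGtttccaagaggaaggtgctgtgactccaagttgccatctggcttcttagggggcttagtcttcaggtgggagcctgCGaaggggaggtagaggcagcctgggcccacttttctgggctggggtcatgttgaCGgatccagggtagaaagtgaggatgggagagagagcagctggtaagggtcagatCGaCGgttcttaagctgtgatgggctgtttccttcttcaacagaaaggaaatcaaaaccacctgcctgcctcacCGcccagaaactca
Sohlh1: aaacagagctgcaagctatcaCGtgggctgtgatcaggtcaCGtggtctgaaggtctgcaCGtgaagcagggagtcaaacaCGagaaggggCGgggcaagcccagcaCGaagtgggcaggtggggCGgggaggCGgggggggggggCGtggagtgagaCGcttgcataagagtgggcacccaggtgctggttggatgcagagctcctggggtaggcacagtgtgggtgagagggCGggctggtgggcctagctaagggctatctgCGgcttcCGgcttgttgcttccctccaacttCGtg
Ptgr1: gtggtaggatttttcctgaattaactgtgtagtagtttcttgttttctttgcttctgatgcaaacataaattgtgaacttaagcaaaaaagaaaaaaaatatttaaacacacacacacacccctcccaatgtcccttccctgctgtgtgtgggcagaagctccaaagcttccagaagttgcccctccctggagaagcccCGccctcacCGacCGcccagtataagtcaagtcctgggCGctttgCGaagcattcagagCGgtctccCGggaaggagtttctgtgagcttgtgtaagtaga
Rhox10: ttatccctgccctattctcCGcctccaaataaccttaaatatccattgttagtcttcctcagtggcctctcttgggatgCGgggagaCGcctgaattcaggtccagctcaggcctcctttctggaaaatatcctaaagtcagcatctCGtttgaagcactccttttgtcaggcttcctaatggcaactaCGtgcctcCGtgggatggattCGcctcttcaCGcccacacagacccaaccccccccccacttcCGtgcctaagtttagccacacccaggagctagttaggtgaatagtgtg
Tdrd9: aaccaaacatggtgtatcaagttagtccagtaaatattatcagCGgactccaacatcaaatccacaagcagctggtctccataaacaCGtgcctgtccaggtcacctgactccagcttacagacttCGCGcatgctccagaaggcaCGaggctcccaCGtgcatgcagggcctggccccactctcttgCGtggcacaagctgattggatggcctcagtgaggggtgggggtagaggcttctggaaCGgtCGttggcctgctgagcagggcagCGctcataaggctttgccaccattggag
Nxf2: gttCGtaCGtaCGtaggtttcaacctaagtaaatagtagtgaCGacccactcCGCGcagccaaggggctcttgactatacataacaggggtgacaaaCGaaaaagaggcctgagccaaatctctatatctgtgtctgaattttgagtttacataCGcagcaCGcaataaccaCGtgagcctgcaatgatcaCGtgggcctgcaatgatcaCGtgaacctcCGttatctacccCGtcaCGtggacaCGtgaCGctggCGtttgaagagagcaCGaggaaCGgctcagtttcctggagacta

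The windows of these genes differed in CpG content. Dnmt3l held 6 CpG pairs in its window, Ptgr1 7, Rhox10 9, Tdrd9 10, Sohlh1 14 and Nxf2 20. Over the 16 members with a window the median was 9.5, with a range of 4 to 30 (Egr4), against a median of 7 over the 27025 genes of the table. Median GC content was 53.5% in the members and 52.7% in all genes. Motifs were searched on either strand. CACGTG was in 3 of the 16 windows (3 copies in Sohlh1, 5 in Nxf2 and 2 in Tdrd9) and in 7.24% of all genes' windows. GGGCGG was in 4 of 16 (35.9% of all), CCAAT in 6 of 16 (37.9%), TCCCGC in 2 of 16 (20%) and TGACGTCA in 0 of 16 (1.88%). Matches of GGGCGG and TCCCGC can share bases. Windows at further listed starts differed: CACGTG was also in the second window of Dnmt3l, Cln3 and Ndrg4 and not in the second window of Nxf2. A match describes the sequence and nothing more.

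Most of the rise in the members fell between male E13.5 and male E14.5. Because the members were chosen to be low at male E12.5 and high at male E15.5, a rise somewhere between them was given by the choice, and the 2 stages in between show where it fell. In all 24 members both E14.5 libraries stood above both E13.5 libraries. The median member was at 3.3% of its male E15.5 level at E13.5 (range 0 to 15%) and at 66.9% at E14.5 (range 48.6 to 106%). At E13.5, 6 members (Egr4, Ptgr1, Cln3, Piwil4, Rhd and Ighm) had reached a mean of 10 RPM, and the other 18 reached it first at E14.5. In 18 members both E15.5 libraries were above both E14.5 libraries, and Ptgr1, Myof, Igh, Ighm, Cacna1h and Tspan8 were the exceptions. Male E15.5 entered the choice. The share of all genes whose libraries separate in these ways was not counted, so the counts of 24 and 18 only describe the members.

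**Figure D1:**
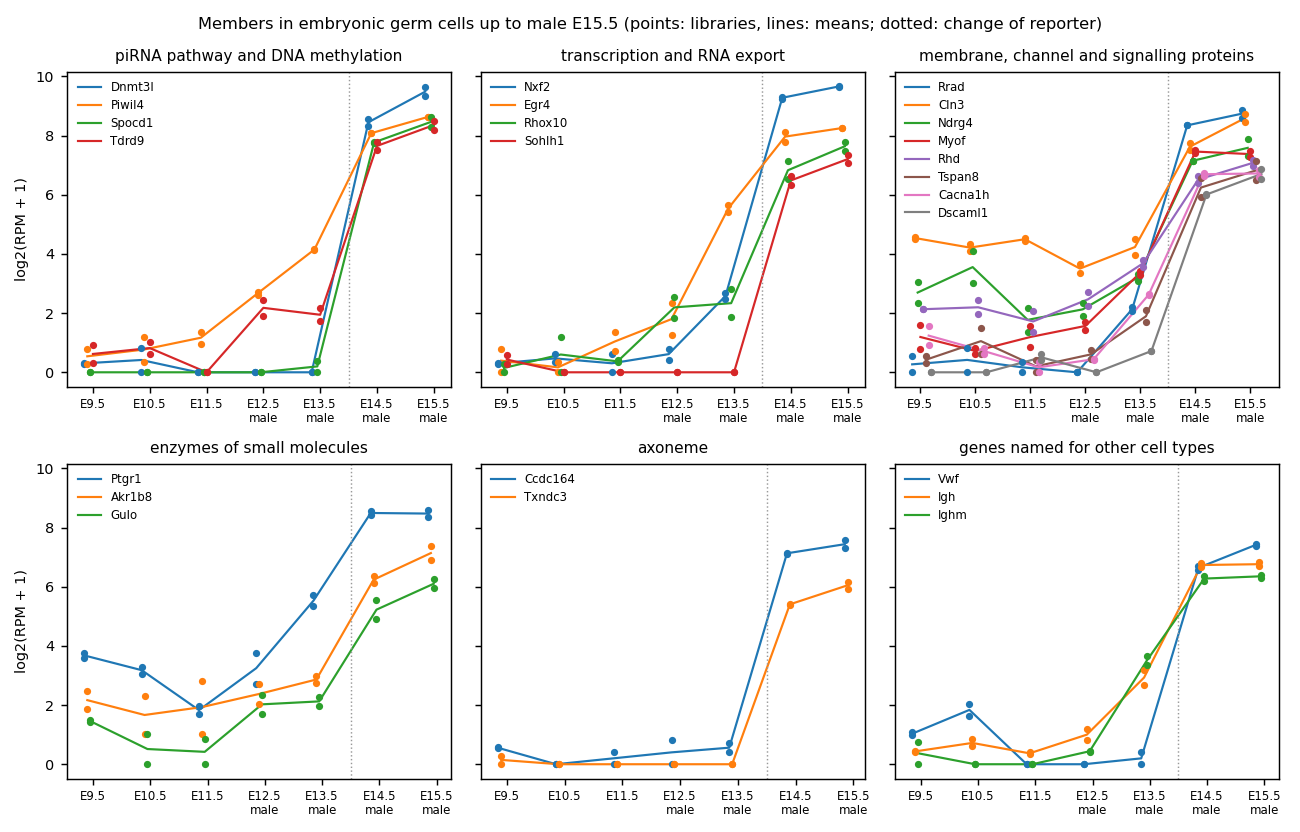
Level of the 24 members, as log2(RPM + 1) on the vertical axis, in germ cells from E9.5 to male E15.5 on the horizontal axis, in panels by role. Points are libraries (2 per group), lines join group means, and the dotted line marks the change of reporter. In all 24 members both E14.5 libraries lie above both E13.5 libraries, with Egr4, Ptgr1, Cln3, Piwil4, Rhd and Ighm at a mean of 10 RPM or more before that step. The share of all genes that separate so was not counted.

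The step was tested with limma across 12567 genes, and a gene counts as called when its log2 change is at least 1 either way and its p, adjusted by Benjamini-Hochberg, is under 0.05. All 24 members were tested, and 24 were called higher at male E14.5 than at male E13.5, against 19% of all genes tested. Their median log2 change was 4.22 against 0.08 over all genes, and the changes ran from 2.42 ± 0.53 (SE, Egr4, adjusted p = 0.000515) to 8.45 ± 0.39 (Dnmt3l, adjusted p = 7.99e-14). The reporter used for sorting changed at the same step, from Dppa3-EGFP to Ddx4-RFP, so stage and reporter cannot be told apart. Markers of other cells also rose at this step: 5 of 7 tested interstitial and peritubular markers, 6 of 7 fibroblast markers and 6 of 8 blood and macrophage markers were called higher. Their summed levels went from 79.8 to 88.9 RPM to 174.9 to 183.5 RPM (17 interstitial markers), from 2.3 to 6.67 to 55.7 to 129 (12 fibroblast markers) and from 9.68 to 10.3 to 70.9 to 274 (18 blood and macrophage markers), with 1, 1 and 2 of them at 0 at E14.5. In females, where the members are low by choice, the blood and macrophage sum was 63.2 to 131 RPM at E14.5 and 164 to 525 at E15.5, overlapping with males. The interstitial sum was 45.7 to 57.2 and 42.4 to 44.8 RPM there and the fibroblast sum 37.7 to 47.4 and 14.6 to 39.8, both below the male libraries of the same day, as in the members. Among defining markers, Ptprc of white blood cells and Amh, the Sertoli cell hormone, were at 0 in every male library, but other genes of their lists were present. Cd68 and Fcer1g of the blood and macrophage list were called higher at this step. Of 6 tested Sertoli cell markers 0 were called higher and 2 lower. The 20 Sertoli markers summed to 67.9 to 69.8 RPM at male E13.5, 41.9 to 47.4 at E14.5 and 54.8 to 64.6 at E15.5, with 4, 4 and 6 at 0. The part of these cells in the members' rise was not tested.

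Of the members that act in the piRNA pathway and DNA methylation, Dnmt3l, the inactive cofactor that stimulates the de novo DNA methyltransferases, was at 0 in both libraries at each of E11.5, male E12.5 and male E13.5. It stood at 321 and 379 RPM at E14.5, at least 356-fold higher than the 3 reads that a library at 0 allows, and at 639 and 801 RPM at E15.5. Spocd1, a nuclear partner of the piRNA machinery needed for methylation of transposons, followed the same course, with a single read (0.317 RPM) in 1 of the E13.5 libraries, 221 and 214 RPM at E14.5 and 313 and 395 RPM at E15.5. It was at 0 in all female libraries, as was Vwf. Piwil4 (MIWI2), the nuclear PIWI protein, was already rising: 5.58 and 5.15 RPM at male E12.5, 17.1 and 16.4 at E13.5, 269.6 and 270.1 at E14.5, and 395 and 396 at E15.5. Females reached 9.52 and 9.3 RPM of Piwil4 at E13.5 and fell to 1.18 and 1.37 at E14.5. Tdrd9, a Tudor-domain helicase of the piRNA pathway, was at 3.49 and 2.3 RPM at male E13.5 and 181 and 221 at E14.5. Unlike Spocd1 it was also present in the ovary, at 15.52 and 19.5 RPM in female E15.5.

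The members of transcription and RNA export were led by Nxf2, an X-linked relative of the mRNA export receptor. Nxf2 was at 5.39 and 4.6 RPM at male E13.5, 603 and 638 at E14.5 and 806 and 812 at E15.5, and females held 16.2 and 20.54 RPM at E14.5. Egr4, a zinc-finger factor of the early growth response family, came on before the others, with 41.6 and 49.9 RPM at E13.5 against 4.09 and 1.37 at E12.5, and rose to 222 and 279 RPM at E14.5. Sohlh1, a helix-loop-helix factor of spermatogonia and oocytes, came on later: it was at 0 in both libraries at male E12.5 and E13.5 and stood at 79.8 and 98.0 RPM at E14.5, at least 90.3-fold higher, and at 133 and 161 RPM at E15.5. Rhox10, an X-linked homeobox gene of prospermatogonia, was at 6.03 and 2.63 RPM at E13.5 and at 91.0 and 139.5 RPM at E14.5.

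Members that encode membrane, channel and signalling proteins made up the largest group, with 8 genes. Rrad, a Ras-related GTPase that inhibits calcium channels, was at 3.17 and 3.61 RPM at male E13.5 and 324 and 325 at E14.5. Cacna1h, the pore of a low-voltage calcium channel, went from 5.08 and 5.25 RPM to 99.1 and 106 over the same step. Neither gene's libraries at E14.5 came near those at E13.5. Cln3, the lysosomal membrane protein lost in juvenile Batten disease, had the highest level of the members in the groups that chose them, 23.0 and 21.5 RPM at E9.5, and stood at 21.9 and 14.4 RPM at male E13.5 and 215 and 179.7 at E14.5. Myof, a ferlin of membrane fusion and repair, rose from 9.84 and 8.86 RPM to 183 and 168, and had 178 and 153 RPM at E15.5, overlapping with the stage before. Rhd, the Rh blood group antigen, went from 13.0 and 10.8 RPM to 82.5 and 98.9. The red cell genes Hba-a1, Hba-a2, Hbb-b1 and Alas2 were called higher at the same step. The part of red cells in the Rhd values was not tested. Ndrg4, of the NDRG family, the tetraspanin Tspan8 and the adhesion protein Dscaml1 were at means of 8.22, 2.75 and 0.646 RPM at E13.5 and 141, 76.5 and 63.4 RPM at E14.5.

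The remaining members were 3 enzymes and 2 axonemal genes. Ptgr1, a prostaglandin reductase, was at 51.4 and 39.7 RPM at male E13.5 and 343 and 376 at E14.5, and its libraries at E15.5 (382 and 328 RPM) overlapped with those at E14.5. Akr1b8, an aldo-keto reductase, went from 5.71 and 6.89 to 81.2 and 68.3 RPM, and Gulo, which makes vitamin C, from 3.81 and 2.95 to 28.9 and 45.7 RPM. Ccdc164 (Drc1), a part of the complex that regulates axonemal dyneins, and Txndc3 (Nme8), a thioredoxin-domain protein of sperm and cilia, were at or near 0 up to E13.5. Ccdc164 then stood at 138 and 140.3 RPM and Txndc3 at 41.0 and 41.7 RPM at E14.5, the latter at least 42.0-fold higher. Both axonemal genes thus came on at the same step as the piRNA genes.

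Besides Rhd (above), 3 members are named for other cell types. Vwf, which encodes the clotting factor made by endothelial cells and megakaryocytes, was the only member on any cell type marker list used here. It was at 0 in all female libraries and in both E11.5 and male E12.5 groups, at 0.317 and 0 RPM at male E13.5, and at 94.0 and 103.7 RPM at E14.5 and 165 and 174 at E15.5. The sum of the 12 other endothelial markers did not rise at E14.5, but single markers went both ways. They summed to 80.4 to 91.7 RPM at male E13.5, 54.6 to 64.8 at E14.5 and 80.4 to 98.8 at E15.5. Of them 5, 3 and 0 were at 0. Pecam1 alone made up most of the E13.5 sum. Of 7 tested, 2 were called higher at E14.5 (Egfl7 and Plvap) and 2 lower (Pecam1 and Cldn5). The defining genes Cdh5 and Kdr were at 0 in both E14.5 libraries and at a mean of 0.529 RPM each at E15.5, Pecam1 fell from 58.4 to 11.3 RPM between E13.5 and E14.5, and Plvap rose from 1.43 to 18.8. In female libraries the 12 endothelial markers summed to 24.15 to 24.38 RPM at E14.5 and 23.66 to 27.38 at E15.5. Both ranges were below the male libraries of the same day, as was Vwf. The megakaryocyte genes Pf4, Itga2b, Gp9 and Ppbp were added after the values were seen. In males they summed to 0 RPM at E13.5, 0.857 to 1.81 at E14.5 and 2.47 to 4.08 at E15.5. In females, where Vwf was at 0, they summed to 4.66 to 7.95 RPM at E14.5 and 7.61 to 9.46 at E15.5. The part of other cells in the Vwf values was not tested.

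Igh and Ighm, the immunoglobulin heavy chain locus and its mu constant region, rose together. Igh was at 5.41 and 8.05 RPM at male E13.5, 111 and 100.1 at E14.5 and 112 and 103 at E15.5. Ighm was at 11.7 and 9.18, 80.6 and 72.4, and 78.0 and 83.5 RPM at those stages. The Igh interval (chromosome 12 from 113258768 to 116009954) contains Ighm (113418826 to 113422730), so the 2 entries may share reads and are not independent members. Summed, 8 B cell markers added after the values were seen (Cd79a, Cd79b, Ms4a1, Pax5, Cd22, Blnk, Vpreb1 and Igll1) were at 28.9 to 49.2 RPM at male E13.5, 21.7 to 42.3 at E14.5 and 37.0 to 40.8 at E15.5, with 4, 2 and 0 of them at 0, so their range at E14.5 overlapped with that at E13.5. In female E15.5 they summed to 1.113 to 2.13 RPM, with 5 at 0.

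**Figure D2:**
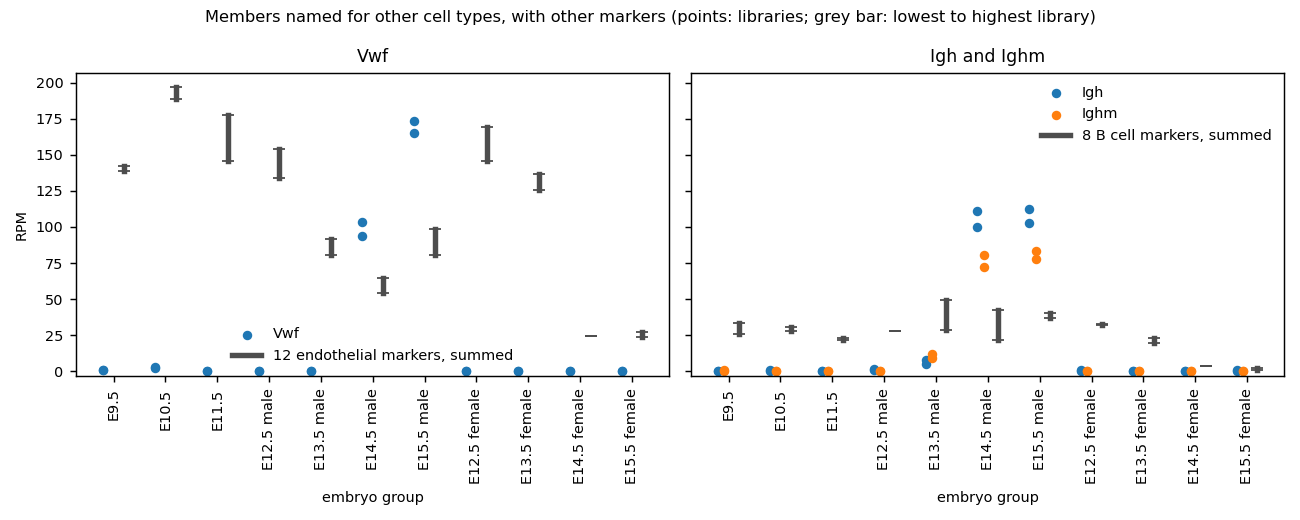
RPM on the vertical axis of Vwf (left) and of Igh and Ighm (right) in each embryo library, by group on the horizontal axis, beside the summed level of 12 other endothelial markers and of 8 B cell markers (grey bars from the lower to the higher library). Vwf stands at 94.0 to 174 RPM in male E14.5 and E15.5 and at no more than 3.14 in any other group. The summed markers of its list are no higher there than at E11.5 (146 to 177). They are higher there than in females of the same days (24.15 to 24.38 RPM at E14.5, 23.66 to 27.38 at E15.5). That sum includes Pecam1, which fell between male E13.5 and E14.5, while Egfl7 and Plvap rose.

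Other genes of the same pathways, excluding the members, were counted at the same step, at which 19% of all genes tested were called higher and 13.3% lower. Of 26 tested piRNA genes 16 were called higher at male E14.5, among them Gtsf1, a piRNA cofactor (log2 change 4.92 ± 0.31, adjusted p = 8.37e-12), Morc1 (3.84 ± 0.17) and Tex15 (3.24 ± 0.15), and only Wdr77 was lower. Of 14 tested genes of DNA methylation and chromatin, 5 were higher and 2 lower, with Dnmt3a, the methyltransferase that works with DNMT3L, at 34.0 and 35.4 RPM at E13.5 and 313 and 279.8 at E14.5. Of 17 germ cell genes of transcription and RNA export, 10 were higher and 4 lower. The list of male germ cell fate went the other way for most of its changed genes, with 2 higher (Nanos2 and Nanos3) and 11 lower of 23, the latter including the NODAL pathway gene Lefty1 (-5.39 ± 0.34). The cell cycle list holds inhibitors of division together with cyclins, which promote it. Of its 19 tested genes 2 were higher (Cdkn2b and Btg2) and 5 lower. The latter were Cdkn1a, E2f4, Gadd45g, Trp53 and the cyclin Ccne1 (-2.92 ± 0.22). These lists were written with earlier results of the data known.

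In culture most members stayed low. Of the 24, 12 were under a mean of 10 RPM in every culture group and 9 were under 5 RPM in every culture library. Expressed as a share of the male E15.5 mean, the highest culture group reached a median of 4.78% over the members, and 5 members passed 20%: Ptgr1 (85.3%), Dnmt3l (34%), Rhd (28.1%), Sohlh1 (26.4%) and Rhox10 (22.9%). For Ptgr1, Dnmt3l and Rhd that group was a single library of the C57BL/6 line, and for Sohlh1 and Rhox10 the Stra8 knockout at day 9. Among the low members, Spocd1 reached at most 1.01 RPM, Txndc3 1.76 and Egr4 3.09 in any culture library. The members of the piRNA and methylation group thus came apart in culture, with Dnmt3l and Piwil4 measurable and Spocd1 near 0.

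**Figure D3:**
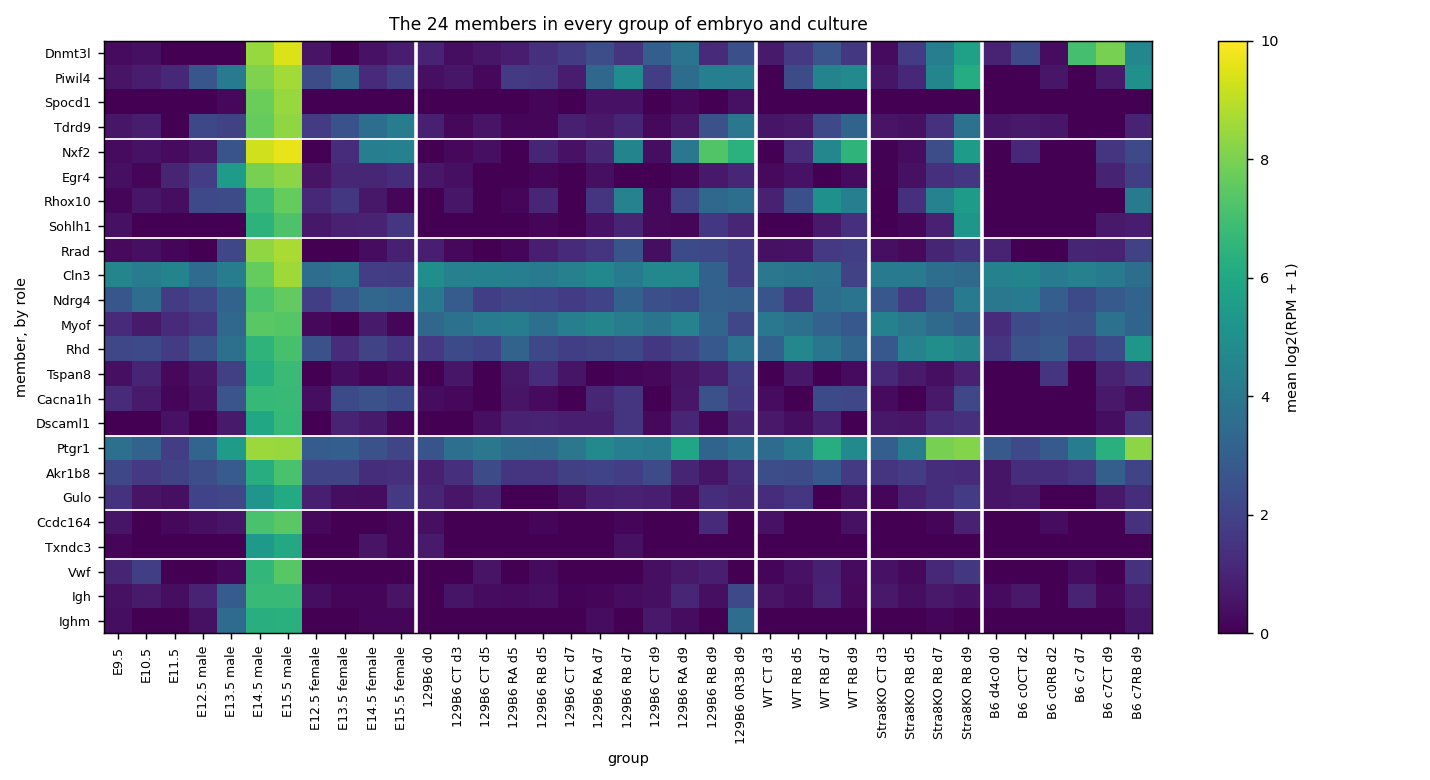
Mean log2(RPM + 1) (colour) of the 24 members, in rows by role, in each of the 37 groups of embryo and culture, in columns. White lines separate the embryo, the 129S1:C57BL/6 line, wild type and Stra8 knockout of the DBA/2:C57BL/6 line and the C57BL/6 line. All rows are bright at male E14.5 and E15.5, and in culture 12 rows stay under 10 RPM in every group.

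In the 129S1:C57BL/6 line 10 of the 24 members reached the 5 RPM in 2 libraries needed for a test, and the other 14 were not tested. Between day 0 and CT day 3 none of the 10 was called with limma (3 had an unadjusted p below 0.05), against 5.47% of all 11873 genes tested. From CT day 3 to CT day 9, only Dnmt3l was called higher (background 1.66%), from 0.658 and 0 RPM to 6.43 and 7.44 (log2 change 2.62 ± 0.61, adjusted p = 0.0171). That call was lost without any of the 4 libraries, at log2 changes of 2.26 (without the second day 3 library) to 2.98 (without the first). At day 5 limma called 0 of 10 members for RA against CT, RB against CT and RB against RA, with 1, 2 and 2 at an unadjusted p below 0.05 and backgrounds of 0.244%, 0.674% and 0.0421%.

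At day 7, Piwil4 (log2 change 2.65 ± 0.46) and Rhox10 (1.56 ± 0.41) were higher under RA than under CT (2 of 10 tested, background 4.68%). Under RB, Rhox10 (4.44 ± 0.41), Piwil4 (4.11 ± 0.46), Nxf2 (4.04 ± 0.50), Ndrg4 and Rrad were higher than under CT (5 of 10, background 15.7%). Rhox10 and Nxf2 were also higher under RB than under RA (2 of 10, background 3.58%). The 3 comparisons share their libraries. Rhox10, Nxf2, Piwil4 and Rrad reached the minimum for a test only through RA or RB libraries, so these counts are a description.

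By day 9 the members split: under RB, Nxf2, Rhox10, Piwil4 and Rrad were higher than under CT, and Dnmt3l and Cln3 were lower. Nxf2 rose most. It was at 0 and 0.647 RPM in the CT libraries, 11.7 and 18.3 under RA and 143 and 168 under RB, with no overlap between groups. Against CT its log2 change was 3.61 ± 0.50 under RA (adjusted p = 1.26e-05) and 6.93 ± 0.50 under RB (adjusted p = 9.04e-11), and RB exceeded RA by 3.32 ± 0.50 (adjusted p = 1.4e-05). Rhox10 followed the same order, at 0 and 0.323 RPM under CT, 1.89 and 4.65 under RA and 9.13 and 8.85 under RB. Piwil4 was at 4.5 and 1.29, 9.14 and 12.6, and 17.9 and 19.6 RPM in the same groups, and RB against RA was not called (0.75 ± 0.46, adjusted p = 0.202). Rrad was called higher under both, at no more than 5.04 RPM, and its RB call was lost after quantile normalization (1.14) and without the second RB library or the second CT library (1.44 without the latter). The RB call of Rhox10 over RA (1.31 ± 0.41) was lost without either RB library (1.29 and 1.33) or the first RA library (0.82).

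Ptgr1 and Dnmt3l showed another pattern, with the highest value under RA. Ptgr1 was at 16.4 and 17.1 RPM under CT, 63.3 and 56.9 under RA and 11.1 and 6.17 under RB. It was called higher under RA than under CT (1.78 ± 0.39, adjusted p = 0.00153) and lower under RB than under RA (-2.71 ± 0.39, adjusted p = 6.81e-06). Dnmt3l was at 6.43 and 7.44, 14.2 and 12.9, and 2.38 and 0.537 RPM, lower under RB than under RA (-2.67 ± 0.61, adjusted p = 0.0011) and than under CT (-1.80 ± 0.61, adjusted p = 0.0153), while RA against CT was not called (0.87 ± 0.61, adjusted p = 0.31). The Dnmt3l call against CT was lost without the second RB library (-1.23) or the second CT library (-1.70). Cln3 was lower under RB than under CT (-1.59 ± 0.28, adjusted p = 4.22e-05) and than under RA (-1.56 ± 0.28, adjusted p = 0.000101), and Myof was lower under RB than under RA (-1.19 ± 0.36, adjusted p = 0.00981), a call lost without the second RB (-0.94) or the second RA library (-1.07).

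In counts, 5 of 10 tested members were higher for RA against CT at day 9 (background 13.3% higher), 4 higher and 2 lower for RB against CT (24.6% and 12.1%), and 2 higher and 4 lower for RB against RA (13.1% and 11.7%). With so few members tested these shares describe 10 genes. Rhox10 reached the minimum for a test only through RB libraries, and Nxf2, Piwil4 and Rrad only through RA and RB libraries. The counts therefore support nothing further. The median log2 change over all genes was 0.20 for RA and 0.19 for RB against CT. After quantile normalization, which removes that shift, RB against CT gave 3 higher and 4 lower, and RA against CT gave 2 higher, Nxf2 and Ptgr1. Rrad, Piwil4 and Rhox10 lost their RA call there, at log2 changes of 1.17, 1.203 and 1.02. Without the second CT library the RA calls fell to 3 (Rrad and Piwil4 lost), as they did without the second RA library (Piwil4 and Rhox10 lost), and without the first RA library Rrad was lost. Without the second RB library 4 members were called for RB against CT, and 4 for RB against RA. Summed interstitial and peritubular markers stood at 60.3 to 91.9 RPM under CT, 290.2 to 349 under RA and 71.5 to 126 under RB (4, 1 and 2 of 17 at 0). Fibroblast markers summed to 59.5 to 126 RPM under CT, 141 to 220.4 under RA and 32.7 to 63.5 under RB (1, 0 and 1 of 12 at 0). Germ cell markers summed to 2521 to 2606, 2173 to 2340 and 5871 to 6480 RPM, and the part of these differences in the members' values was not tested.

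**Figure D4:**
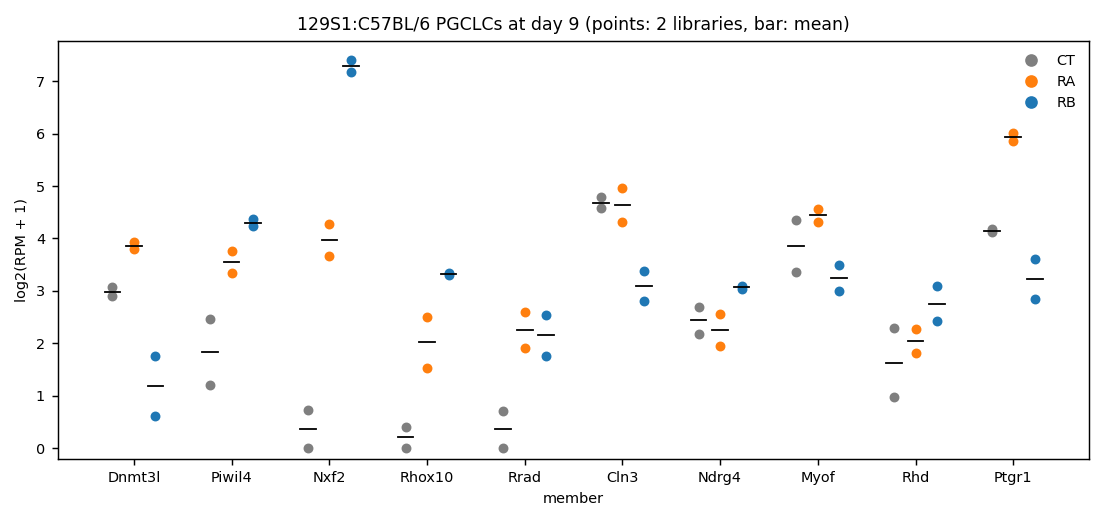
Level at day 9 of the 10 members tested in the 129S1:C57BL/6 line, as log2(RPM + 1) on the vertical axis, under CT, RA and RB. Points are the 2 libraries of each group and the bar is their mean. Nxf2 stands at 0 and 0.647 RPM under CT and 143 and 168 under RB, and Ptgr1 and Dnmt3l have their highest libraries under RA.

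The Stra8 experiment followed wild type and knockout cells from CT day 3 through RB to day 9, and 13 of the 24 members were tested there. In wild type, 8 were higher and 2 lower at RB day 9 than at CT day 3 (background 27.8% and 15.9%). In the knockout, 10 were higher and 1 lower (background 25.6% and 8.34%). After quantile normalization these counts were 4 and 3 in wild type and 8 and 3 in the knockout. Nxf2, Piwil4, Rhox10, Tdrd9, Sohlh1, Dnmt3l and Cacna1h reached the minimum for a test only through RB libraries. Their place among the 13 thus rests on the groups where they are high, and the counts are a description. In wild type Nxf2 went from 0 in both libraries to 72.2 and 109 RPM, at least 64.0-fold higher, and Piwil4 from 0 to 36.9 and 18.3 RPM, at least 19.5-fold higher. Sohlh1 reached 0.839 and 2.81 RPM, a few reads per library, and Myof and Cln3 were the members that fell. Cln3 lost its call without the first day 9 library, in which it stood at 0.839 RPM against 7.02 in the other (-2.03 ± 0.42 with it, -0.97 without). Ndrg4 (1.22) was lost without any of the 4 libraries, Sohlh1 without the second day 9 library (0.88) and Myof without that library (-0.92) or the first of day 3 (-0.82).

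At day 9, 7 members were higher in the knockout than in wild type, with Dnmt3l, Sohlh1 and Ptgr1 the furthest apart, against 10.8% of 12206 genes tested. Sohlh1 and Dnmt3l would not have reached the minimum for a test without the knockout libraries, so their place among the 13 rests on the group where they are high, and the count is a description. Sohlh1 stood at 42.2, 47.1, 33.0 and 33.2 RPM in the 4 knockout libraries and 0.839 and 2.81 in the 2 of wild type. Dnmt3l stood at 61.3, 75.9, 44.5 and 34.8 against 0.839 and 4.21 RPM, and Ptgr1 at 291, 231, 345 and 288 against 26.9 and 26.2 RPM. In each of these 3 genes all knockout libraries, of all 3 lines, were above both wild type libraries. The log2 changes were 4.09 ± 0.51 for Dnmt3l (adjusted p = 1.55e-07), 3.90 ± 0.41 for Sohlh1 (adjusted p = 5.71e-09) and 3.38 ± 0.23 for Ptgr1 (adjusted p = 1.48e-12). Ptgr1 in the knockout reached 81.3% of its male E15.5 mean, Sohlh1 26.4% and Dnmt3l 7.51%.

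A further 4 members were called higher in the knockout at day 9, with smaller differences. Piwil4 was at 71.7, 78.5, 68.9 and 70.3 RPM against 36.9 and 18.3 (1.44 ± 0.37, adjusted p = 0.0024). Rhox10 was at 42.2, 41.9, 48.3 and 50.2 RPM against 22.7 and 15.9 (1.22 ± 0.36, adjusted p = 0.0081), and Rhd at 23.0, 26.2, 15.3 and 27.0 against 6.72 and 11.2 (1.27 ± 0.35, adjusted p = 0.00458). Cln3 was at 11.7, 9.16, 7.65 and 11.6 RPM against 0.839 and 7.02 (1.503 ± 0.37, adjusted p = 0.00144). The libraries of the 2 genotypes did not overlap in any of these 4 genes. Each of these 4 calls rested on 1 wild type library: without the first, Rhd (0.93) and Cln3 (0.44) were lost, and without the second, Piwil4 (0.95) and Rhox10 (0.97), so 5 members were called each time. Dnmt3l, Sohlh1 and Ptgr1 kept their calls under each alternative tried. The wild type libraries were among the shallow ones of the series, at 1.19 and 2.14 M reads. They also differed in the level of the added spike-in transcripts, at 48450 RPM in the first and 36.0 in the second. In the knockout libraries this level was 32010, 13.1, 20.1 and 10.8 RPM. Its part in the calls was not tested.

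Among the members, 0 of 13 were called lower in the knockout at day 9 (background 8.35%). Nxf2 stood at 38.9, 68.0, 45.5 and 34.8 RPM in the knockout, all below the 72.2 and 109 of wild type (-0.95 ± 0.39, adjusted p = 0.0538). It was called lower with median centring and without the knockout library at 68.0 RPM. Tdrd9 (0.52 ± 0.51), Ndrg4, Cacna1h, Myof and Akr1b8 were not called either. With limma 0 of 13 were called at day 3 and at day 5, with 2 and 3 at an unadjusted p below 0.05 (background 0.00819% and 0.0164%). At day 7 Ptgr1, Dnmt3l and Rhd were called higher and Nxf2 and Cacna1h lower (3 and 2 of 13, background 3.16% and 5.57%). Ptgr1 was then at 212 to 314 RPM in the knockout and 72.4 and 77.7 in wild type, while Sohlh1 was still at 0 to 1.7 RPM in both genotypes.

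The difference between genotypes in the change from day 3 to day 9 was tested as a contrast added after the data were seen. It was higher in the knockout for 5 members, Dnmt3l (4.52 ± 0.73), Ptgr1 (3.91 ± 0.33), Sohlh1 (3.90 ± 0.58), Rhox10 (2.15 ± 0.51) and Rhd (1.58 ± 0.50), against 8.66% of all genes tested. Without the first day 9 wild type library, or the second day 3 one, 4 of them stayed called and Rhd did not. Dnmt3l and Sohlh1 entered this contrast, too, only through the knockout libraries, so the count of 5 is a description. Piwil4 (0.89 ± 0.52) and Cln3 (1.31 ± 0.52) were not called, so a different course in the 2 genotypes was not shown for them.

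**Figure D5:**
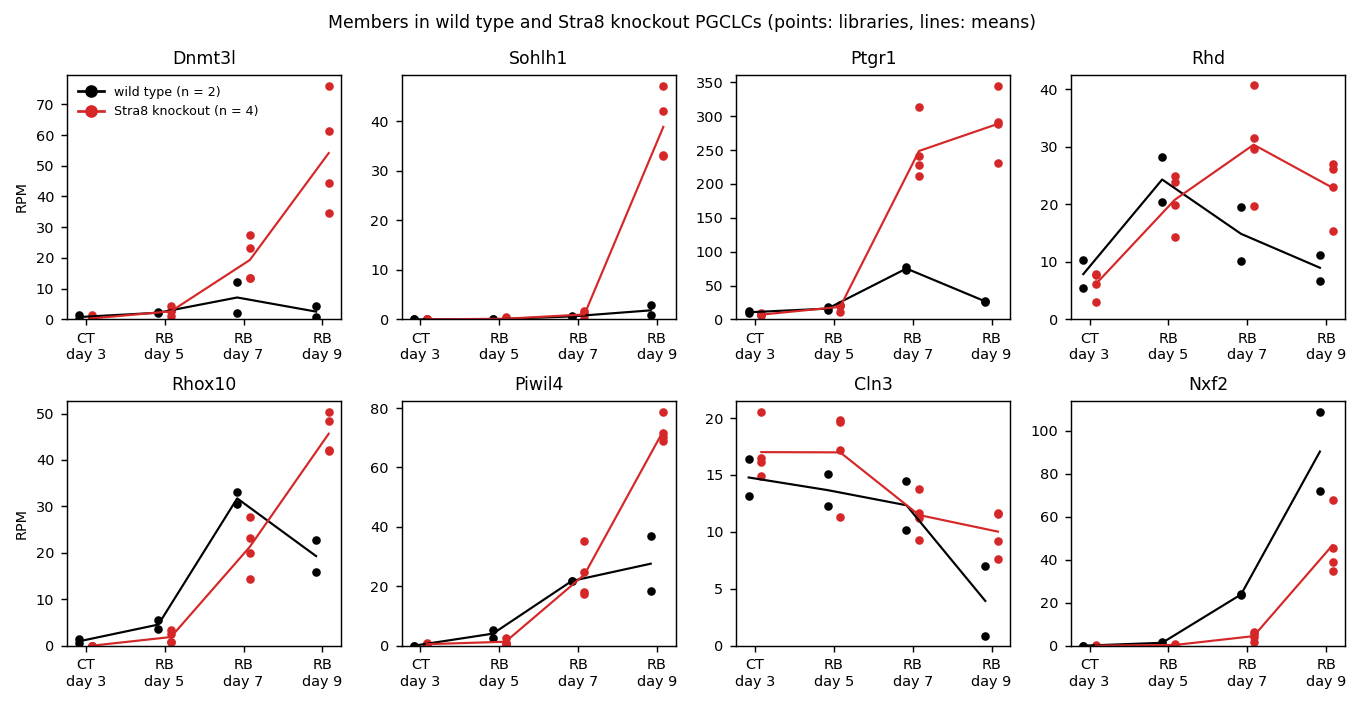
RPM on the vertical axis of 8 members in wild type (black, n = 2) and Stra8 knockout (red, n = 4) PGCLCs at CT day 3 and RB days 5, 7 and 9. Points are libraries and lines join means. At day 9 all knockout libraries lie above both wild type libraries for each gene shown except Nxf2, where all lie below them.

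The 2 genotypes also differed in other genes at day 9, with 10.8% of all genes tested called higher in the knockout and 8.35% lower. Of 25 tested genes of male germ cell fate outside the members, 10 were called higher in the knockout and 0 lower, among them Etv5 (2.09 ± 0.16) and Dmrt1 (1.51 ± 0.15). Most of these 10 went against the members in the embryo: Lefty1, Tdgf1, Fgfr2, Dusp4, Dusp6, Etv4, Etv5 and Sox2 were called lower at male E14.5 than at male E13.5. Within the knockout, Tdgf1, Dusp4, Dusp6, Etv4, Etv5 and Sox2 were called lower at RB day 9 than at CT day 3, and Dmrt1 and Gfra1 higher. Of 15 genes of DNA methylation and chromatin 5 were higher (Dnmt3a, Dnmt3b, Tet1, Tet3 and Ctcfl) and 1 lower. The piRNA genes did not move 1 way, with 3 higher and 4 lower of 24, the latter led by Tex15 (-2.50 ± 0.18), and of 17 genes of transcription and RNA export 1 was higher and 5 lower. Nanos2 was at 0 in wild type and at a mean of 0.193 RPM in the knockout. Interstitial and peritubular markers summed to 325 to 384 RPM in the knockout and 87.3 to 88.5 in wild type (4 and 3 of 17 at 0), of which Ptch1, a receptor and target of hedgehog signalling, made up 289 and 45.1 RPM. Sertoli cell markers summed to 98.6 to 119.7 against 50.6 to 52.9 RPM (8 and 11 of 20 at 0), and fibroblast markers 19.6 to 33.4 against 25.3 to 36.9 (2 and 3 of 12 at 0). Endothelial markers summed to 87.0 to 132 against 34.2 to 55.4 RPM (1 and 3 of 13 at 0). Germ cell markers summed to 3146 to 3423 RPM in the knockout and 6026 to 6766 in wild type. The part of other cells in the members' values was not tested.

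Some entries share sequence with other genes. In GENCODE M21, exons of Dnmt3l overlap Aire on the opposite strand, and those of Cln3 overlap Apobr. No source used here says that counting used strand, so reads in the shared bases cannot be told apart. Aire was at 1.43 to 1.81 RPM at male E14.5 and at 0 to 0.649 in the knockout at day 9, and Apobr at 0.286 to 0.301 and 1.54 to 5.74 RPM. Against the last 400 bases of the members' transcripts, the search found no other gene matching over at least 60 bases at 95% identity, except a predicted RNA over 63 bases of Ptgr1.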

How the data were processed

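Messenger RNA was measured by SC3-seq in 75 mouse libraries of germ cells and PGCLCs. Per the labels, the deposited table holds 1 signal value per gene and library in RPM, scaled by the authors to reads assigned to genes, with 96 spike-in transcripts on the same scale. As tools, Bowtie 1.0.1, TopHat 1.4.1, Cufflinks 2.2.0 and cutadapt 1.11, with the build mm10, are named in the submitters' processing notes. Values were used as deposited, with 2777 values above 0 but under 0.001 RPM set to 0. Of low values, 80.9 to 93.2% were whole reads within 0.05 reads, so counts were not recovered and no count model was fitted.

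Values were taken to log2(RPM + 1), which understates the change of low genes. Genes reaching 5 RPM in at least 2 libraries of an experiment were fitted in limma 3.58.1 (R 4.3.3, lmFit and eBayes with trend), 1 mean per group, embryo, 129S1:C57BL/6 line and Stra8 experiment apart, with Benjamini-Hochberg adjustment over all genes tested. Errors after a log2 change are limma's standard errors. The fit was tested on simulated data. Knockout libraries of day 9 and day 3 come from the same lines, and a block of line changed no member count (11 in both). A fold against a group at 0 uses 3 reads in the shallowest of its libraries as the floor, which covers counting error only.

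The members, lists and comparisons were chosen with earlier results of these data known. The rule on named genes took the 12 members highest at male E15.5, members in a list, in a role group, at the ends of the E13.5 to E15.5 ratio or near the threshold, and up to 8 called members per comparison each way, which allowed all 24 members, and list genes beside a list's count. Promoters came from RefSeq (GRCm38.p6), where all 24 members matched by Entrez number. The alternatives tried were a pseudocount of 0.5, no filter, median centring, quantile normalization, only the groups compared, a replicate block and each library left out. Reads were not analysed here.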

Additional observations from a re-analysis of the deposited data

Results flagged for a closer look

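The change from day 3 to day 9 differed between Stra8 knockout and wild type, by limma's test of the difference itself, for Dnmt3l (log2 difference 4.52, adjusted p = 3.04e-05), Ptgr1 (3.91, adjusted p = 7.39e-10), Sohlh1 (3.90, adjusted p = 9.71e-06), Rhox10 (2.15, adjusted p = 0.00253) and Rhd (1.58, adjusted p = 0.0196). In Dnmt3l, Ptgr1, Sohlh1, Rhox10 and Rhd all 4 knockout libraries were above both wild type libraries at day 9. The contrast was added after the data were seen. Dnmt3l and Sohlh1 reached the minimum for a test only through the knockout libraries.

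Among 4 knockout libraries, Ptgr1 at RB day 5 had 1 far below the rest: 11.2 RPM in the second library of line SK1, against 20.3 to 21.96 in the other 3. It was the only one among 23 sets of 4 libraries looked at, and chance alone marks about 5% of such sets.

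Single libraries that entered no test held members at 10 RPM or more and at over 2 times their control. In the library named 0R3B, at day 9, Nxf2 was at 81.9 RPM, Piwil4 at 18.6, Tdrd9 at 14.51, Rhd at 13.0, Rhox10 at 11.2 and Ighm at 10.8, against CT day 9 libraries of the same line at no more than 0.647, 4.5, 0.321, 3.88, 0.323 and 1.62 RPM. In the C57BL/6 line, the library named c7RB at day 9 held Ptgr1 at 302.9 RPM, Rhd at 37.9, Piwil4 at 31.1 and Rhox10 at 15.9, against 79.4, 3.72, 0.62 and 0 RPM in c7CT. With 1 library each these values have no replicate check. Spike-in transcripts stood at 27190 RPM in c7CT and 9.17 in c7RB, so treatment and that difference cannot be told apart.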

How the results depend on the processing

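None of the called members changed direction under any alternative, and all 24 calls at male E14.5 against E13.5 held in each of 11. Dnmt3l under CT, the only call of day 9 against day 3, was lost with no filter (0 members called, 3 of 24 at an unadjusted p below 0.05 in limma), with only the groups compared (0, and 1 of 10) and without any 1 library (0 to 0, and 1 or 2 of 10). For RA against CT at day 9 the count of 5 fell to 2 under quantile normalization and to 3 to 5 with a library left out. With no filter, which tests more members, the count rose from 6 to 10 for RB against CT, from 6 to 10 for RB against RA and from 7 to 11 for knockout against wild type. A difference of at least 3 in place of 4 gave 44 members, and the other rules 16 to 28. The cause of the losses was not tested.

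Title numbers paired no libraries (correlations of same-numbered deviations -0.063 to 0.104). Spike-in levels split the Stra8 libraries otherwise than title numbers do, and no block of spike-in level was fitted. With the replicate block of the title number, member counts were 24, 1, 5, 6, 6, 10, 11, 7 and 5, as without it. At 3 reads for 0.192 to 2.78 RPM, members at 0 in culture are below detection and not shown to be absent.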

Other observations

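Dnmt3l had its highest culture values in the C57BL/6 line, which entered no comparison: 0.923 RPM at day 0, 133 at day 7 (c7), 245 under CT at day 9 (c7CT) and 24.6 under RB at day 9 (c7RB), 1 library each. The 129S1:C57BL/6 line had 6.43 and 7.44 RPM under CT at day 9. Ptgr1 in the same C57BL/6 libraries was at 6.0, 17.4, 79.4 and 303 RPM, so the 2 genes had opposite orders in the c7CT and c7RB libraries. These 2 libraries of the line also differed in spike-in level (above). Spocd1 was at 0 in all 6 libraries of that line.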
